A study of Mus musculus with 48 samples.

Results

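Heat shock proteins are the chaperones and co-chaperones whose genes cells transcribe more when proteins unfold. Here 10 of their genes were followed through the day in the mouse brain: Hspa1b, Hspa8, Hspa4, Hspa4l, Hsph1, Hspb1, Dnajb1, Hsp90aa1, Hspd1 and Hspe1. They were taken by symbol from the array annotation, with the probe set of the highest mean for each gene, out of 22180 genes that had a probe set with 1 symbol. All 10 had a mean above the filter on low values and were among the 17274 genes tested. The set is named for the cytosol, but Hspd1 (HSP60) and Hspe1 (HSP10) encode the chaperonin of mitochondria, and they are counted with the other 8 unless stated.

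The animals were male C57BL/6 mice under a cycle of 12 h light to 12 h dark. From each brain region studied a piece was cut: ventral midbrain with the nigra and the ventral tegmental area (SN/VTA), habenula (HAB), striatum (STR) and prefrontal cortex (PFC). Collection took place every 4 h through 2 cycles of 24 h. Zeitgeber time (ZT) counts the hours from lights on, with ZT3, ZT7 and ZT11 falling in the light phase and ZT15, ZT19 and ZT23 in the dark phase. Each of the 48 arrays carried RNA pooled from 3 mice, with 1 array for each tissue, time and cycle, so the spread between arrays is that between pools. The labels name no altered genotype, drug or heat treatment, and the groups differ by tissue, time and cycle. The tissues were dissected whole from slices, so fewer cells of a type and less RNA per cell cannot be told apart. Most marker genes followed the labels: Th and Slc6a3 were higher in all 12 SN/VTA arrays than in any other array, Fezf2 and Tbr1 in all 12 PFC arrays, Drd1 and Penk in all 12 STR arrays, and Chrna3 and Chrnb4 in all 12 HAB arrays. The remaining PFC marker, Neurod6, was above every other array in 9 of 12 PFC arrays, with a mean of 9.01 in PFC and 8.41 in HAB. All 48 arrays correlated best with an array of their own tissue, and r between arrays of the same tissue and time ran from 0.982 to 0.995. The values are log2 levels per probe set, so a difference of 1 is a doubling. The number of arrays limits the precision.

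In resting cells the transcription factor HSF1 is held inactive by chaperones, and when unfolded proteins draw these chaperones away it binds repeated copies of the motif GAA and its complement TTC near the start of heat shock genes. HSP70 proteins bind unfolded stretches of other proteins and release them with each cycle of ATP, J-domain proteins such as Dnajb1 deliver the substrate, and HSP110 proteins exchange the nucleotide. HSP90 finishes the folding of kinases and steroid receptors, and small heat shock proteins hold unfolded proteins without ATP. In rodents body temperature is higher in the active dark phase, and heat shock genes of liver are known to follow it.

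Promoter sequence was available in RefSeq (GRCm38.p6) for 8 of the 10 genes, all but Hspa8 and Hsp90aa1, as windows of 300 bases from 250 before to 50 after each annotated start. A 2-unit heat shock motif, GAANNTTC or TTCNNGAA, each of which reads the same on both strands, was found in 5 of these 8 genes, against 17.0% of the 27025 genes with a window and 15.1% of the 32851 windows. The 3-unit motif, GAANNTTCNNGAA or its complement TTCNNGAANNTTC, which contains 2 overlapping copies of the 2-unit motif, was found in 3 genes, against 0.662% of genes and 0.603% of windows. These are matches of letters, not measured binding sites. The 250 bases before the start are shown 5′ to 3′ for the 2 genes with the widest daily swing and a match, Hspa1b (chr17:34959239-34959488, minus strand) and Hspb1 (chr5:135887669-135887918, plus strand), for the HSP110 gene Hsph1 (chr5:149636337-149636586, minus strand) and for the chaperonin gene Hspe1 (chr1:55087898-55088147, plus strand), whose rhythm did not pass the test. Capitals mark the motif matches.
Hspa1b: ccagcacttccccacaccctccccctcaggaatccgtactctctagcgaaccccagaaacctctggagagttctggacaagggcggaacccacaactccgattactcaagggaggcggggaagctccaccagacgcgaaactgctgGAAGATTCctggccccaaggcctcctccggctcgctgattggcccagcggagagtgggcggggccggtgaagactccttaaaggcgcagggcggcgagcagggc
Hspb1: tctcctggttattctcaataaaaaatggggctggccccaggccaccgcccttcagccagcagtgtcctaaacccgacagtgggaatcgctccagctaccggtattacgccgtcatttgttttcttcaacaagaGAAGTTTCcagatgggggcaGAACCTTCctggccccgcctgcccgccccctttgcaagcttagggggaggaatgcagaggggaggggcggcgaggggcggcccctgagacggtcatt
Hsph1: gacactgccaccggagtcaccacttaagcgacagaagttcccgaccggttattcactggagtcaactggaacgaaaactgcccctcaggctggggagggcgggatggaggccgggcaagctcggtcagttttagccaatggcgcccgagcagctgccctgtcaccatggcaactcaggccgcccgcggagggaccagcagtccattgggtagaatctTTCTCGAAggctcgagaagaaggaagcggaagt
Hspe1: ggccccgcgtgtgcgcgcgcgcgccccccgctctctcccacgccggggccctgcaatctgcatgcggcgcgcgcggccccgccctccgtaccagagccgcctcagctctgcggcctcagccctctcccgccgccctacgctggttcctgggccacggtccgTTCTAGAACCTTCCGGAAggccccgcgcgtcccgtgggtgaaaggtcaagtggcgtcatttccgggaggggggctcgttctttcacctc
Hspa1b held 1 match, with its first base at -104 from the start. Hspb1 held 2, at -117 and -97. Hsph1 held 1 in the printed stretch, at -33, and a 3-unit match downstream of the start, at 37. Hspe1 held 2 overlapping 3-unit matches, from -89. Hspd1 is transcribed from the opposite strand next to Hspe1, and its second window shares 285 bases with that of Hspe1, so the matches of this pair are the same bases. Hspa4, Hspa4l and Dnajb1 had no match in their windows, which says only that these letters are not there. Of the genes with a match, Hspa1b, Hsph1 and Hspb1 passed the rhythm test below, and Hspd1 and Hspe1 did not. Hspa4, Hspa4l and Dnajb1, without a match, passed. Whether a match goes with a rhythm was not tested.

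Across the 4 tissues together, 7 of the 10 genes passed the test for a 24-h rhythm, where 5.55% of all genes tested did. The 10 genes were chosen with earlier results of these data known, so the gap to all genes is a description. Of the 8 cytosolic genes 7 passed, and of the 2 chaperonin genes 0 did. An unadjusted p below 0.05 in this test was reached by 9 of the 10, and by 19.1% of all genes. All 7 had fitted peaks in the dark, from ZT16.9 to ZT22.1. Of all genes tested, 2.73% passed with a peak in the dark and 2.81% with a peak in the light. At ZT7, near the middle of the light phase, Hspa1b, Dnajb1, Hsph1, Hspa8 and Hspa4l were below their tissue mean in 8 of 8 arrays, and Hspa4 and Hspb1 in 7 of 8. The test was an F test in limma of the cosine and sine of 24 h over 48 arrays with tissue as a term, with Benjamini-Hochberg adjustment over all genes and a threshold of 0.05. An amplitude is the log2 height of the fitted peak over the mean of the curve, and it is positive by construction. The fit treats the 4 tissues of a sampling hour as independent, although they may come from the same mice. With the 4 tissues averaged at each of the 12 sampling hours, a fit chosen after the data were seen, 1 of the 10 genes passed, Hsph1 (adjusted p = 0.0435), and 0.770% of all genes did. The other 6 then had adjusted p between 0.0903 and 0.163.

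Hspa1b, the stress-inducible HSP70, had the widest swing of the set. As mean ± SD over 8 arrays (4 tissues, 2 cycles), its deviation from the tissue mean was -0.38 ± 0.30 at ZT3, -0.69 ± 0.32 at ZT7, 0.25 ± 0.46 at ZT11, 0.45 ± 0.25 at ZT15, 0.16 ± 0.30 at ZT19 and 0.22 ± 0.36 at ZT23. All 8 arrays at ZT3 and all 8 at ZT7 were below the tissue mean, and all 8 at ZT15 were above it, while at ZT11 the arrays were split 4 and 4. The fitted amplitude was 0.49 ± 0.078 (SE) with a peak at ZT16.9, a trough-to-peak fold of 1.96 (adjusted p = 1.54e-04), and 37 of 48 arrays were on the fitted side of their tissue mean. The rise came before lights off in several pools. In the arrays of ZT11, the SN/VTA level was 7.14 in the first cycle and 8.21 in the second, the STR level 7.22 and 7.91, and the HAB level 7.87 and 8.62. The second cycle was the higher in each of these 3 tissues, whereas PFC had 7.26 and 7.23.

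Dnajb1, the J-domain protein that feeds substrates to the inducible HSP70, followed nearly the same course at a smaller size. Its mean deviation was -0.16 ± 0.12 at ZT3, -0.21 ± 0.099 at ZT7, 0.047 ± 0.13 at ZT11, 0.17 ± 0.040 at ZT15, 0.033 ± 0.075 at ZT19 and 0.13 ± 0.10 at ZT23 (SD, n = 8). At ZT15 all 8 arrays were above the tissue mean, from 0.11 to 0.24, and at ZT7 all 8 were below it, from -0.39 to -0.13, so these times did not overlap. The amplitude was 0.17 ± 0.027 with a peak at ZT17.3 (fold 1.26, adjusted p = 1.23e-04), and 38 of 48 arrays lay on the fitted side. Over the 48 arrays, each centred on its tissue mean, Hspa1b and Dnajb1 had the highest correlation of the 45 pairs of the set, r = 0.77. The pairs ran from -0.13 to 0.77 with a median of 0.40, and 44 of 45 were above 0; each pair shares arrays and time points, so these values are a description.

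**Figure D1:**
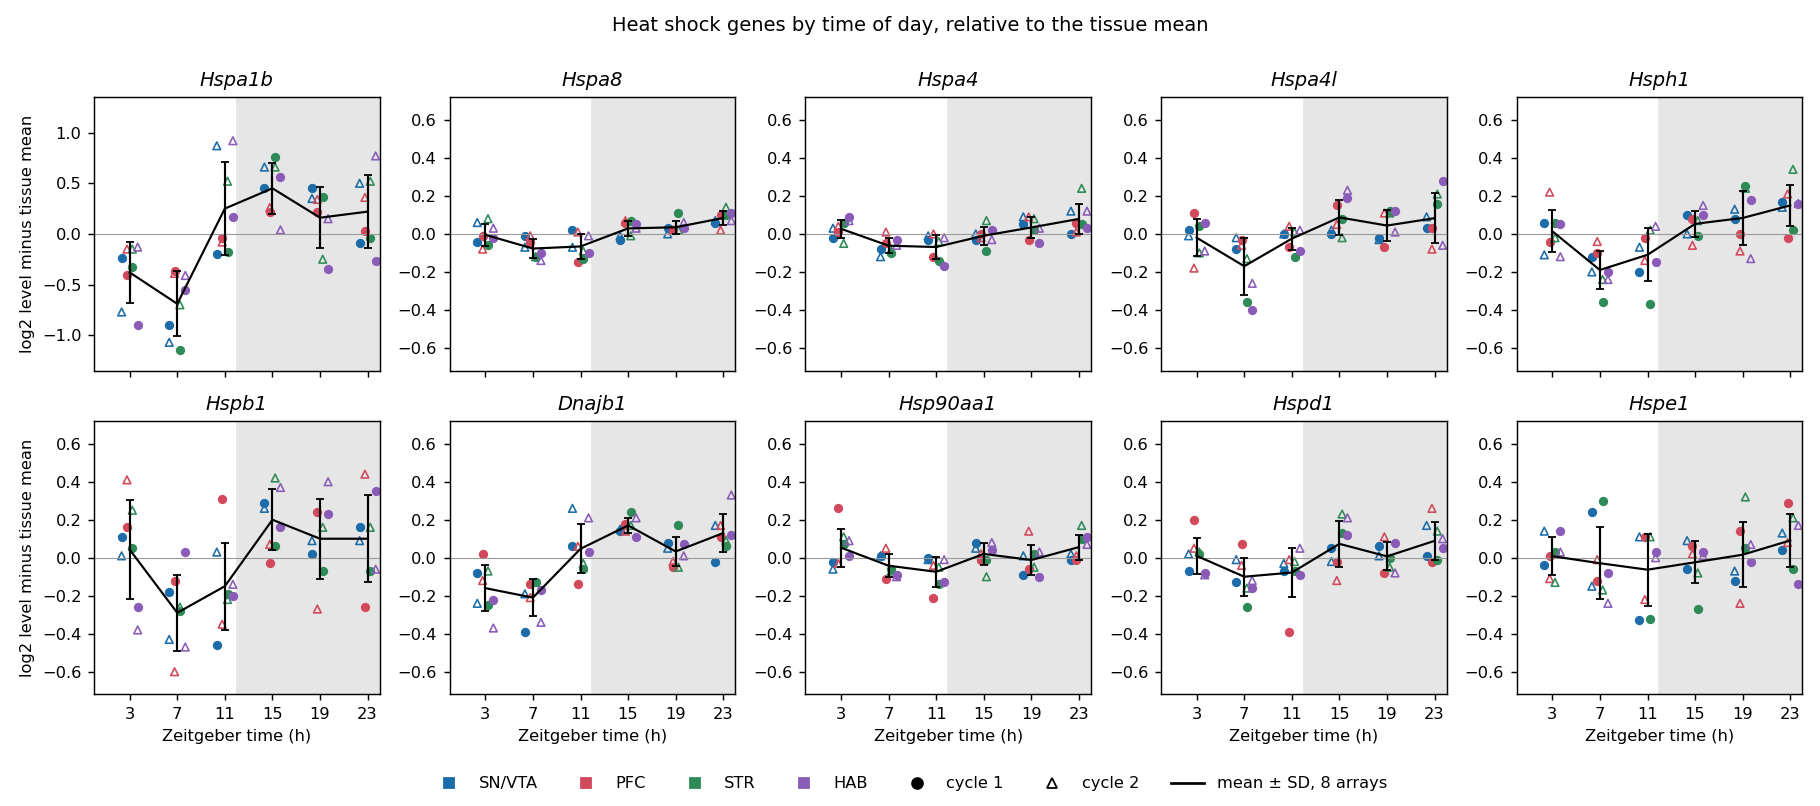
Log2 level of each gene minus its tissue mean (y axis) against Zeitgeber time in hours (x axis; grey marks the dark phase) for the 48 arrays, coloured by tissue, with filled circles for the first cycle and open triangles for the second. The black line is the mean ± SD of 8 arrays; the y axis of Hspa1b is wider than that of the other genes. At ZT7 all 8 arrays of Hspa1b, Hspa8, Hspa4l, Hsph1 and Dnajb1 lie below 0, and at ZT15 all 8 of Hspa1b and Dnajb1 lie above it.

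Hspa8, the constitutive HSP70 that is also needed to uncoat clathrin vesicles, was at a high level and moved little. In HAB its 6 dark arrays ran from 12.29 to 12.36 (median 12.31) and its 6 light arrays from 12.11 to 12.28 (median 12.19). In PFC the dark arrays ran from 12.47 to 12.55 and the light arrays from 12.30 to 12.46. Dark and light thus did not overlap in HAB and PFC, while in SN/VTA 2 and in STR 3 of the 6 dark arrays were above every light array. The share of all genes with such a separation was not counted, for Hspa8 or for the other genes. In single tissues the Hspa8 amplitude was 0.091 ± 0.031 in HAB (limma adjusted p = 0.765) and 0.055 ± 0.035 in PFC (0.718). It was 0.12 ± 0.037 in STR (0.481) and 0.048 ± 0.024 in SN/VTA (0.675), so none passed. The shared amplitude of Hspa8 was 0.076 ± 0.013 with a peak at ZT20.8 (fold 1.11, adjusted p = 3.73e-04). Its deviation was highest at ZT23, 0.084 ± 0.037, with 8 of 8 arrays above the tissue mean, and lowest at ZT7, -0.077 ± 0.050 (SD, n = 8).

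The 3 HSP110 genes, whose proteins exchange the nucleotide of HSP70 and help it to dissolve aggregates, all passed the test. Hsph1 had a mean deviation of -0.19 ± 0.10 at ZT7, -0.11 ± 0.14 at ZT11, 0.053 ± 0.069 at ZT15, 0.084 ± 0.14 at ZT19 and 0.15 ± 0.11 at ZT23 (SD, n = 8), and 0.014 ± 0.11 at ZT3. It was below the tissue mean in 8 of 8 arrays at ZT7 and above it in 7 of 8 at ZT23. Its amplitude was 0.15 ± 0.025 with a peak at ZT20.6 (fold 1.24, adjusted p = 1.54e-04). Hspa4 had a fitted amplitude of 0.074 ± 0.014 and peaked at ZT22.1 (fold 1.11, adjusted p = 0.00139), the latest peak of the 7. It was below the tissue mean in 8 of 8 arrays at ZT11 and above it in 7 of 8 at ZT23. Hspa4l swung by 0.11 ± 0.024 and peaked at ZT19.0 (fold 1.16, adjusted p = 0.00967). Its low point was ZT7, -0.17 ± 0.15, where the arrays ran from -0.40 to -0.023. The Hspa4l call did not hold without the ZT7 arrays (adjusted p = 0.362), without STR (0.153) or without HAB (0.109).

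Hspb1, the small heat shock protein HSP27, had the largest amplitude of the set after Hspa1b. Its mean deviation was -0.29 ± 0.20 at ZT7 and 0.20 ± 0.16 at ZT15 (SD, n = 8), from -0.60 to 0.027 and from -0.027 to 0.42. The arrays of these times overlapped by 1 array each. The amplitude was 0.20 ± 0.047 with a peak at ZT19.5 (fold 1.32, adjusted p = 0.0142), with 33 of 48 arrays on the fitted side. The call did not hold without SN/VTA (adjusted p = 0.123), STR (0.0706) or HAB (0.145), nor without ZT7 (0.398) or ZT11 (0.0623). A second probe set of Hspb1, with a lower mean, had an amplitude of 0.079 ± 0.036.

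The remaining 3 genes did not pass. Hspd1 had an amplitude of 0.080 ± 0.024 at ZT20.5 (adjusted p = 0.0797), and it passed without PFC (0.0376), without ZT19 (0.0259) or without the HAB array of ZT19 in the second cycle (0.0491). Hsp90aa1, the inducible cytosolic HSP90, had 0.054 ± 0.018 at ZT23.0 (adjusted p = 0.134). Hspe1 had 0.064 ± 0.032 at ZT22.8 (adjusted p = 0.432). Their fitted peaks were in the dark too, so that all 10 genes had a fitted dark peak, where 48.5% of all genes tested did. The peaks of Hsp90aa1 (SE 1.3 h) and Hspe1 (SE 1.9 h) lay within their SE of lights on. Without ZT15 the peak of Hsp90aa1 fell at ZT0.5, and in the first cycle alone that of Hspe1 fell at ZT1.7, both in the light. Hspd1 and Hspe1, whose proteins form 1 complex, had a correlation of -0.13 with each other over the 48 arrays, the lowest of the 45 pairs.

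**Figure D2:**
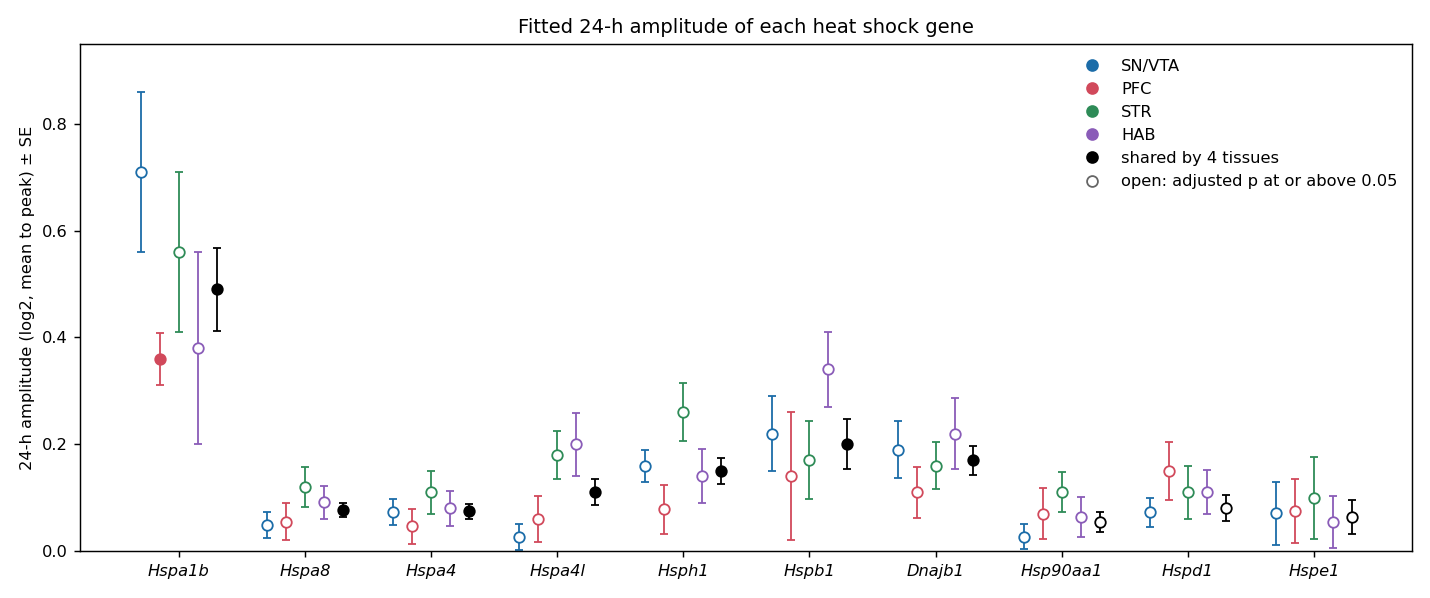
Fitted 24-h amplitude (y axis, log2 from mean to peak, with SE bars) of each gene (x axis) in each tissue (12 arrays) and shared by the 4 tissues (48 arrays, black); filled symbols have an adjusted p below 0.05 and open ones do not. The shared amplitude passes for 7 genes, and among the amplitudes in single tissues that of Hspa1b in PFC, 0.36, is filled.

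Within single tissues of 12 arrays each, 1 gene in 1 tissue passed. Hspa1b in PFC stood at 6.90 and 7.16 at ZT3 in the first and the second cycle, 6.94 and 6.92 at ZT7, 7.26 and 7.23 at ZT11, 7.53 and 7.57 at ZT15, 7.53 and 7.64 at ZT19, and 7.34 and 7.66 at ZT23. All 6 dark arrays were above all 6 light arrays. The amplitude was 0.36 ± 0.049 with a peak at ZT18.2 (fold 1.64, limma adjusted p = 0.0177), where 0.179% of all genes passed in PFC. Leaving out 1 of 5 PFC arrays ended the call: ZT15 of the first cycle (adjusted p = 0.0580), ZT7 of the first (0.0806), ZT15 of the second (0.0680), ZT19 of the second (0.0659) and ZT7 of the second (0.0748). With these left out the amplitude was still 0.35 or 0.36. The call also ended with time as a factor of 6 levels (adjusted p = 0.273) and in a single fit over all 48 arrays (0.449).

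In the other tissues 0 of the 10 genes passed, against 0.162% of all genes in SN/VTA, 0.0174% in STR and 0.0174% in HAB. An unadjusted p below 0.05 was reached by 5 genes in SN/VTA, 2 in PFC, 6 in STR and 5 in HAB, where 9.87%, 11.6%, 8.49% and 6.30% of all genes reached it. The amplitudes of Hspa1b were larger outside PFC, and so were their errors: 0.71 ± 0.15 in SN/VTA (peak ZT17.1, adjusted p = 0.156), 0.56 ± 0.15 in STR (ZT17.2, 0.443) and 0.38 ± 0.18 in HAB (ZT15.3, 0.836). Its SD over the 12 arrays was 0.28 in PFC and 0.65, 0.58 and 0.55 in SN/VTA, STR and HAB. Hsph1 had 0.26 ± 0.054 in STR (adjusted p = 0.316), 0.16 ± 0.030 in SN/VTA (0.108), 0.14 ± 0.051 in HAB (0.778) and 0.078 ± 0.046 in PFC (0.686). Hspa4l had 0.20 ± 0.059 in HAB and 0.18 ± 0.045 in STR, against 0.026 ± 0.024 in SN/VTA and 0.059 ± 0.043 in PFC. Hspb1 had 0.34 ± 0.070 in HAB, where 5 of 6 dark arrays were above every light array.

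These gaps between tissues did not pass a test of the difference itself. For the difference of the 24-h rhythm between tissues (limma F test of 6 interaction terms, 48 arrays), 0 of the 10 genes passed and 0.0289% of all genes did. The smallest adjusted p was 0.712, for Hspa4l, which was also the only gene of the 10 with an unadjusted p below 0.05 (0.0353), where 6.64% of all genes had one. The miss does not show that the tissues have the same rhythm.

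The courses of Hspa1b and Dnajb1 had a dip at ZT19 between higher values at ZT15 and ZT23, and a 12-h component was tested beside the 24-h curve. No gene of the 10 passed (0 of 10 by limma, 0.0984% of all genes), and 4 had an unadjusted p below 0.05, where 6.92% of all genes did. In the limma fit across all genes, the 12-h amplitude of Dnajb1 was 0.10 ± 0.022 (adjusted p = 0.122) and that of Hspa1b 0.29 ± 0.067 (adjusted p = 0.190). Hspb1 had 0.13 ± 0.044 (adjusted p = 0.611) and Hspa4l 0.063 ± 0.022 (adjusted p = 0.639). Sampling every 4 h gives 3 points in 12 h. Without the PFC array of ZT11 in the first cycle, 1 gene passed.

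Between the cycles, none of the 10 genes passed in any of the 4 tissues (0 calls by limma), and 0, 0, 0 and 0.00579% of all genes did in SN/VTA, PFC, STR and HAB. The largest difference was that of Hspa1b in HAB, 0.45 ± 0.18 higher in the second cycle (5 of 6 times, limma unadjusted p = 0.0343, adjusted p = 0.581). An unadjusted p below 0.05 was also reached by Hspb1 in STR, 0.17 ± 0.067, and Hspe1 in PFC, -0.16 ± 0.072. Of all genes, 10.1%, 4.11%, 5.23% and 7.92% reached it in SN/VTA, PFC, STR and HAB. The first cycle alone gave 3 of the 7 shared calls, Hspa1b (adjusted p = 0.00174), Hsph1 (0.0185) and Dnajb1 (0.0211), where 1.15% of all genes passed. The second cycle alone gave 0 of 10 by limma, with adjusted p from 0.160 to 0.603, where 0.405% of all genes passed.

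Of 14 other genes known to be induced through HSF1, 8 passed the shared 24-h test, all with peaks in the dark between ZT18.3 and ZT22.1, and all 14 had a fitted dark peak. This list too was chosen with earlier results of these data known. Chordc1, an HSP90 co-chaperone, had a fitted amplitude of 0.25 ± 0.028 and peaked at ZT19.8 (adjusted p = 1.08e-07), larger than that of any of the 10 genes but Hspa1b. Ahsa2 (0.20, ZT18.4), Stip1 (0.14, ZT21.2) and Ahsa1 (0.11, ZT20.1), which help HSP90 through its cycle, followed with adjusted p of 1.86e-05, 2.59e-05 and 1.75e-04. The median amplitude of the list was 0.11, that of the 10 genes 0.093 and that of all genes tested 0.042. Hspa1a, the near-identical neighbour of Hspa1b, had 0.22 ± 0.070 with a peak at ZT16.7 (adjusted p = 0.127) and a correlation of 0.78 with Hspa1b over the 48 arrays. The promoter windows of the pair differ at 4 of 300 bases, and their probe sets may share signal, so the difference between them is uncertain.

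Co-chaperones of HSP70 and HSP90 passed for 4 of 14, Stip1, Ahsa1, Fkbp4 and St13, of which the first 3 are also in the HSF1 list. Other HSP70 genes passed for 1 of 7, Hspa2 (0.096, ZT16.1, adjusted p = 0.0156). The cytosolic chaperonin CCT, which folds actin and tubulin, passed for 2 of 8, Cct5 (0.083, ZT20.0) and Cct4 (0.10, ZT20.5), and 7 of 8 had dark peaks. Of 9 mitochondrial chaperones and proteases 0 passed by limma, with a median amplitude of 0.026, and 1, Clpp, had an unadjusted p below 0.05, against the 19.1% of all genes given above. Of 6 small heat shock genes 0 passed, and 4 had an unadjusted p below 0.05. These were Cryaa (ZT21.0) and Cryab (ZT20.0), with dark peaks, and Hspb6 (ZT11.2) and Hspb7 (ZT0.9), with light peaks. Of 4 heat shock factors and regulators (Hsf2, Hsf4, Hsf5, Hsbp1) 0 passed, and none had an unadjusted p below 0.05. A fitted dark peak was held by 11 of 14 co-chaperones, a share above the 48.5% of all genes. In the other lists 3 of 7 other HSP70 genes, 3 of 6 small heat shock genes, 4 of 9 mitochondrial genes and 2 of 4 factors and regulators had one. These counts include genes of very small amplitude, with SEs of the peak time of up to 27.1 h, so their phase is not settled. Hsf1 was not analysed here.

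**Figure D3:**
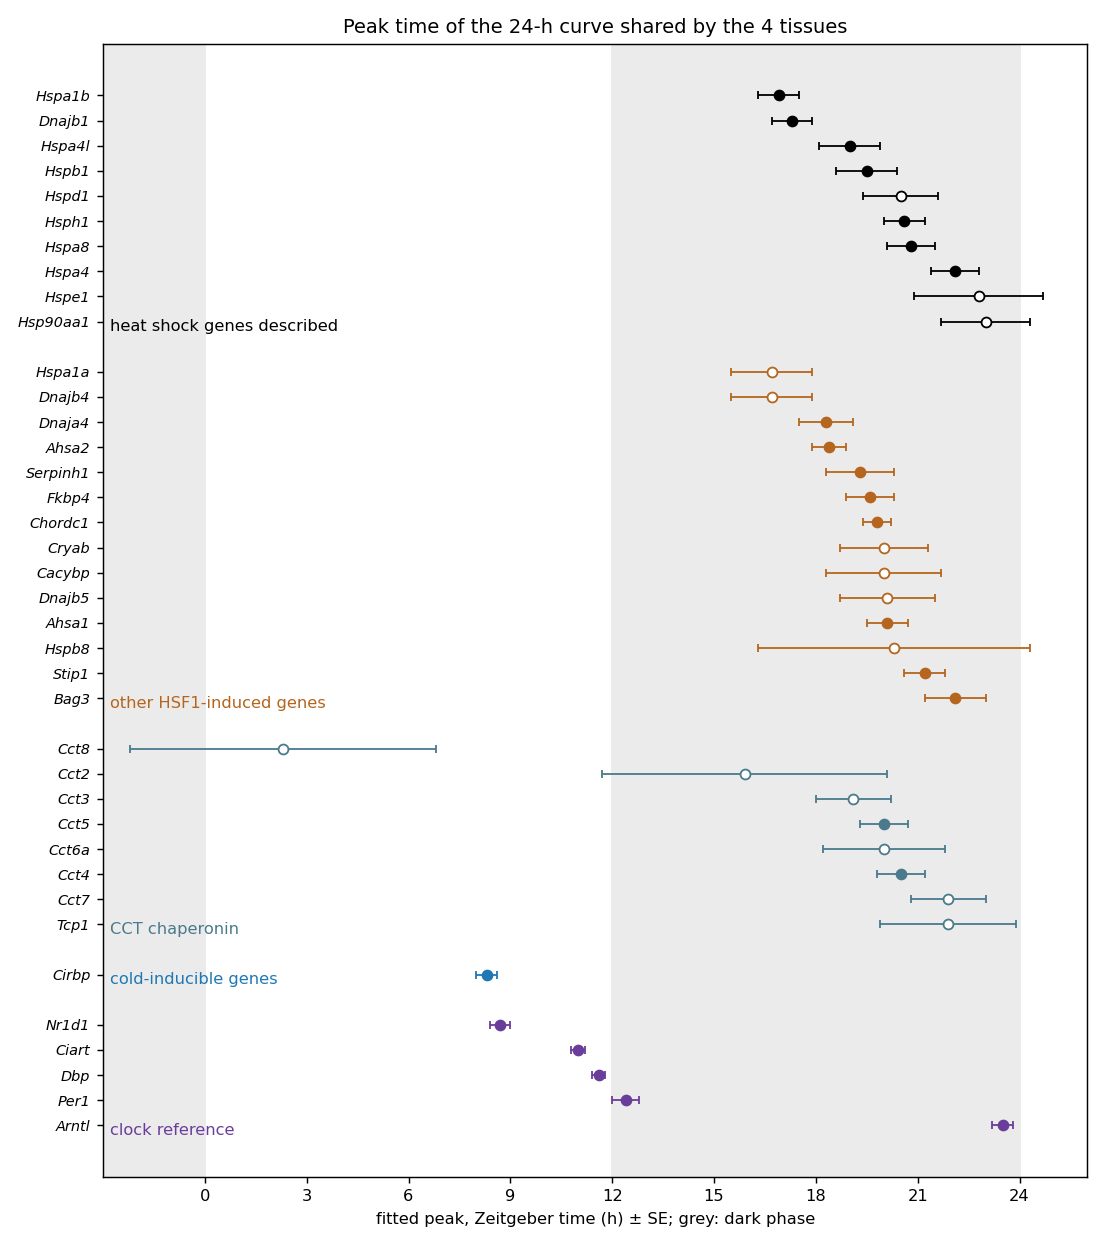
Fitted peak (x axis, Zeitgeber time in hours, with SE bars; grey is the dark phase) of the shared 24-h curve for the 10 heat shock genes, other HSF1-induced genes, the CCT chaperonin, Cirbp and 5 clock genes (y axis); filled symbols have an adjusted p below 0.05. The 7 filled heat shock genes lie between ZT16.9 and ZT22.1, after Per1 at ZT12.4, and Cirbp lies at ZT8.3.

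The cold-inducible RNA-binding protein gene Cirbp ran opposite in time, with an amplitude of 0.30 ± 0.024 and a peak at ZT8.3 (adjusted p = 2.30e-12). The clock gene Nr1d1 peaked at ZT8.7, Ciart at ZT11.0, Dbp at ZT11.6 and Per1 at ZT12.4, before the 7 heat shock genes that passed, and Arntl at ZT23.5 (0.35, adjusted p = 2.30e-12), after them. Dbp had an amplitude of 0.50 ± 0.032 and Ciart 0.64 ± 0.038, so Hspa1b swung about as widely as Dbp but with an SE of 0.078.

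For a measure of likeness, each gene was centred within its tissue, and the 10 genes were scaled to the same SD and averaged for each array. Predicted genes, clone-named genes, pseudogenes, mitochondrial genes, short RNAs and all symbols starting with Rn were left out of the ranking. By the correlation with this mean over 48 arrays, the 5 highest of the remaining genes outside the set were Hspa5 (0.84), Calr (0.84), Pdia6 (0.82), Chordc1 (0.81) and Sdf2l1 (0.81). Of these 5, Hspa5, Calr, Pdia6 and Sdf2l1 encode folding proteins of another compartment, the endoplasmic reticulum. Hspa5 swung by 0.25 ± 0.029 and peaked at ZT18.8, and Sdf2l1 0.33 ± 0.041 at ZT18.6. The 5 lowest were Nr1d1 (-0.77), Cryl1 (-0.74), Cirbp (-0.72), Marveld1 (-0.72) and Hnrnpdl (-0.71), with peaks from ZT7.1 to ZT8.7. All these genes share the 48 arrays and a 24-h course, so these correlations are a description.

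Other marker lists moved with time of day as well. Of 5 endothelial markers 4 passed with peaks in the dark, Cldn5 (0.21, ZT22.8), Flt1 (0.10, ZT21.1), Kdr (0.13, ZT23.4) and Slco1a4 (0.14, ZT12.5), and the summed endothelial level deviated from the tissue mean by -0.10 ± 0.074 at ZT11 and 0.052 ± 0.082 at ZT19 (SD, n = 8). Of 8 immediate early genes 1 passed, Egr1 (0.21, ZT16.0), 6 had an unadjusted p below 0.05 and 7 had fitted peaks in the dark. Next in order of p were Fos (0.16, ZT17.1), Nr4a1 (0.19, ZT16.3) and Arc (0.18, ZT18.3). In PFC alone 1 passed and 5 had an unadjusted p below 0.05. The summed level of this list deviated by -0.22 ± 0.18 at ZT3, -0.18 ± 0.21 at ZT7 and 0.17 ± 0.21 at ZT23. Between these it was 0.11 ± 0.19 at ZT11, still in the light, 0.097 ± 0.21 at ZT15 and 0.029 ± 0.072 at ZT19. Of 4 oligodendrocyte markers 2 passed with peaks in the light, Mag (0.20, ZT7.8) and Mog (0.15, ZT8.8). Of 5 astrocyte, 5 microglia, 4 choroid plexus and 4 ependymal markers 0 passed by limma, with unadjusted p below 0.05 for Gfap, Aqp4 and P2ry12. Of 3 SN/VTA, 3 PFC, 4 STR and 4 HAB neuron markers 0 passed as well. Chrna3 (ZT23.5), Pou4f1 (ZT2.3) and Fezf2 (ZT15.0) had an unadjusted p below 0.05, where 19.1% of all genes did. Within their own tissue 3 of 3, 1 of 3, 0 of 4 and 1 of 4 had one, in the same order. In SN/VTA 9.87% of all genes had one. The part of these lists in the rhythms of the heat shock genes was not tested.

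The levels of the genes differed between tissues. Of 60 pairwise differences (10 genes, 6 pairs of tissues, limma contrasts averaged over the 6 times) 45 passed, a share near that of all genes, of which 67.7% to 75.9% passed per pair. All 10 passed the joint test, as did 95.2% of all genes. In SN/VTA 3 genes were higher and 3 lower than in PFC, where 43.7% and 31.5% of all genes were (75.1% in either direction). Against STR, 7 were higher and 0 lower in SN/VTA, where 45.1% and 30.8% of all genes were. In PFC 7 were higher and 1 lower than in STR, where 33.3% and 40.6% of all genes were (73.9%). Against HAB, 6 were higher and 2 lower in SN/VTA (all genes 42.4% and 25.4%), and 7 higher and 2 lower in PFC (all genes 33.6% and 38.8%, 72.4% in either direction). In STR 1 was higher and 6 lower than in HAB, where 32.8% and 37.6% of all genes were (70.4%). The median of all genes moved with the scaling, for SN/VTA minus STR from 0.061 as deposited to 0.25 with arrays centred on their median, so small differences between tissues are uncertain.

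Hspb1 differed most. Over 12 arrays per tissue its level was lowest in PFC (4.69, median 5.31, highest 5.73), intermediate in SN/VTA (5.71, 6.22, 6.46) and STR (5.96, 6.23, 6.66), and highest in HAB (6.56, 7.01, 7.43). PFC and HAB did not overlap, and HAB was 3.34-fold above PFC (difference 1.74 ± 0.089, adjusted p = 6.09e-17); SN/VTA and STR did not differ beyond their spread (adjusted p = 0.442). The PFC mean of 5.29 lies near the filter level of 5.05. The second Hspb1 probe set had tissue means from 5.88 to 6.12 and did not have this order. Choroid plexus and ependymal markers were also highest in HAB, with summed levels from 10.66 to 13.60 (median 13.40) and from 9.26 to 9.96 (median 9.61), against 8.48 to 9.03 (8.67) and 7.91 to 8.44 (8.18) in PFC; their part in the Hspb1 level was not tested.

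The J-domain gene Dnajb1 and the HSP110 gene Hspa4l were higher in SN/VTA and PFC than in STR and HAB. Hspa4l had a mean of 9.66 ± 0.042 in SN/VTA, 9.65 ± 0.098 in PFC, 9.08 ± 0.16 in STR and 9.03 ± 0.20 in HAB (SD, n = 12), and no array of the upper pair was as low as any of the lower. The folds between upper and lower tissues were 1.49 to 1.55, while within the pairs the adjusted p was 0.807 and 0.308. Dnajb1 had 8.21 ± 0.19, 8.14 ± 0.13, 7.73 ± 0.15 and 7.68 ± 0.23 in the same order, with folds of 1.33 to 1.45 between upper and lower tissues, and its arrays overlapped. The likeness within the pairs depended on the scaling. With median centring SN/VTA was above PFC for Hspa4l (0.13, limma adjusted p = 0.00698) and Dnajb1 (0.19, 2.10e-04). With quantile normalization these differences did not pass (-0.018 and -0.0076), but Dnajb1 was higher in STR than in HAB (0.14, 0.00390).

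Hsph1 and Hsp90aa1 were highest in PFC. Hsph1 ran from 10.12 to 10.48 in PFC and from 9.21 to 9.93 in the other 3 tissues, without overlap, at 1.53-fold to 1.60-fold. SN/VTA, STR and HAB did not pass against each other (adjusted p from 0.222 to 0.859). With median centring Hsph1 was higher in SN/VTA than in STR (0.24, adjusted p = 1.29e-04) and HAB (0.13, 0.0274), and with quantile normalization it was lower in SN/VTA than in HAB (-0.11, 0.0428). Hsp90aa1 had a mean of 9.04 ± 0.12 in PFC, 8.82 ± 0.044 in SN/VTA, 8.48 ± 0.083 in HAB and 8.35 ± 0.095 in STR, and all 6 differences passed. The smallest, STR against HAB (-0.12, adjusted p = 0.00204), was lost with quantile normalization (-0.067, adjusted p = 0.0804).

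Hspd1 was highest in SN/VTA (9.48 ± 0.076), then PFC (9.11 ± 0.17), HAB (8.95 ± 0.12) and STR (8.80 ± 0.13), and all 6 differences passed. Hspe1, its partner, was at a median of 7.13 in SN/VTA, 7.01 in PFC, 6.86 in STR and 6.69 in HAB, so STR and HAB were in the opposite order. SN/VTA against PFC and PFC against STR did not pass for Hspe1 (adjusted p = 0.0987 and 0.102). Both passed with median centring (0.24, adjusted p = 0.00202, and 0.19, 0.0133), and PFC against STR also with quantile normalization (0.17, 0.0332). Both genes thus had their highest mean in SN/VTA, at 1.60-fold over STR for Hspd1 and 1.37-fold over HAB for Hspe1. For Hspe1 the lead over PFC did not pass with the values as deposited.

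Hspa4 had the smallest spread over tissues, from 10.20 ± 0.11 in STR to 10.39 ± 0.067 in SN/VTA. Hspa1b was highest in HAB (7.70 ± 0.55) and lower in SN/VTA (7.34 ± 0.65), PFC (7.31 ± 0.28) and STR (7.39 ± 0.58). Its 3 differences with HAB passed (adjusted p = 0.0219, 0.0113 and 0.0455), but each was lost under at least 1 other setting, all 3 of them when time of day was left out of the model (0.123, 0.0850 and 0.182). Hspa8 was highest in PFC (12.45 ± 0.068) and lowest in STR (12.10 ± 0.10) in its brightest probe set, although PFC was 0.016 below SN/VTA with arrays centred on their median. With the mean of its 4 probe sets of 1 symbol, PFC was 0.68 below STR instead of 0.35 above, so the tissue order of Hspa8 depends on the probe set.

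**Figure D4:**
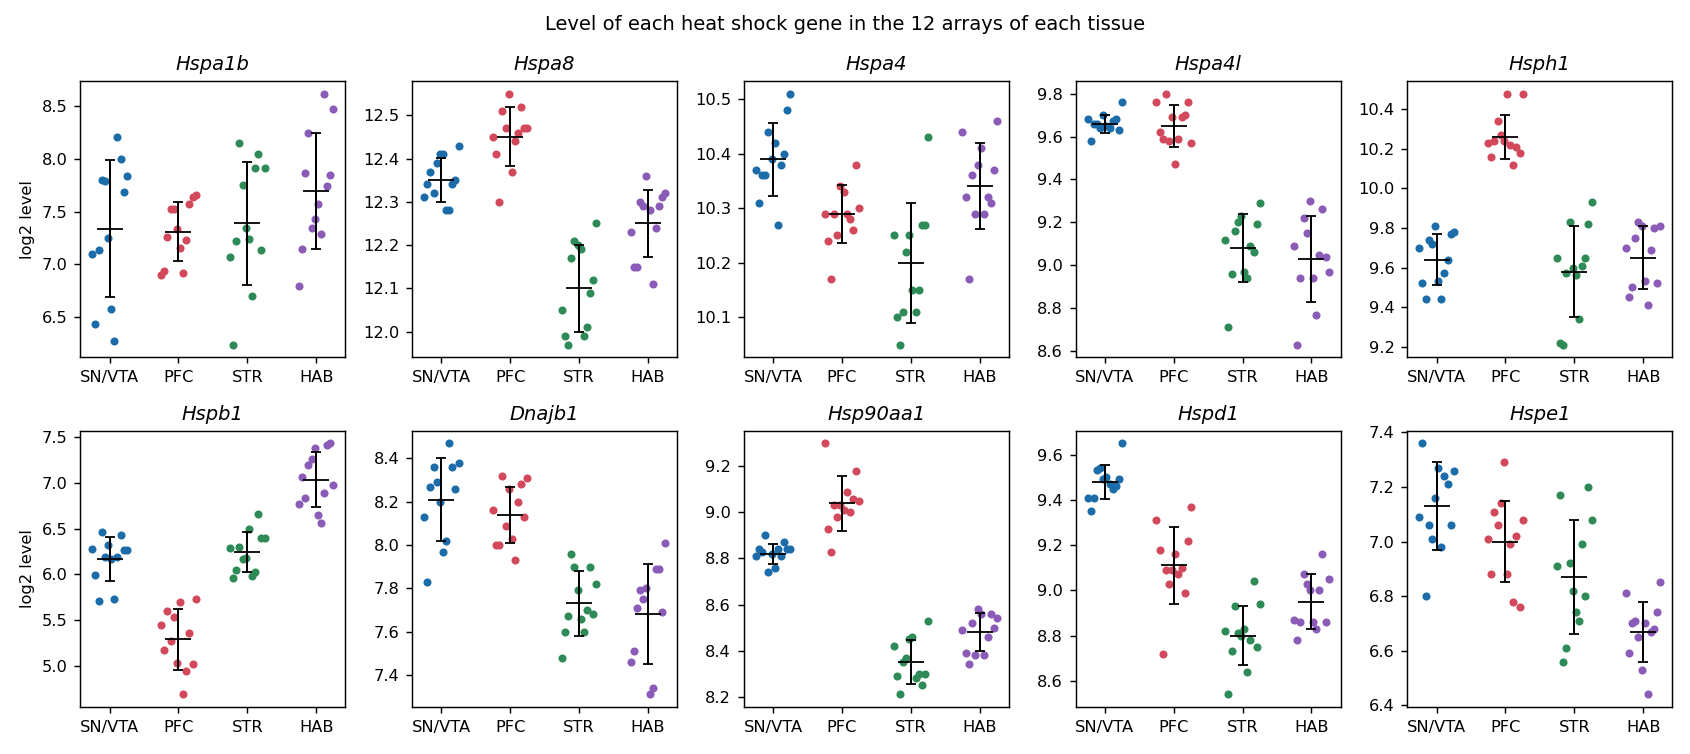
Log2 level (y axis, a different range for each gene) in the 12 arrays of each tissue (x axis), ordered within a tissue by cycle and time, with mean ± SD in black. Hspb1 runs from 4.69 to 5.73 in PFC and from 6.56 to 7.43 in HAB, and Hsph1 in PFC lies above every array of the other tissues.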

How the data were processed

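The 48 arrays were of the Affymetrix Mouse Gene 2.0 ST type. By the labels' protocols, total RNA was isolated with RNeasy columns, pooled from 3 mice and labelled with the WT Pico kit. The authors deposited log2 values per probe set (1.09 to 13.65, array medians 5.84 to 6.07); how they corrected background, summarised probes and normalized arrays is not given in the sources used here, and no detection calls were used. Of 41345 rows, 23521 carried a single gene symbol; the row with the highest mean was kept for each gene, and genes at or above 5.05, the 30th percentile of row means, were tested.

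Tests used R 4.3.3, limma 3.58.1 (lmFit, eBayes) and the data.table package (1.17.8), with Benjamini-Hochberg adjustment over 17274 genes and a threshold of 0.05. Figures used Python 3.11.15 with matplotlib 3.10.9. On simulated data with known rhythms, the shared test recovered 46.0%, 98.0%, 100% and 100% of amplitudes of 0.1, 0.2, 0.4 and 0.8, and the PFC test 2.00%, 24.0%, 78.0% and 100%. The simulated noise was drawn independently for each array. Recovery with noise shared by the tissues of a sampling hour or by a cycle was therefore not examined. Each gene had 1 noise SD, taken over the 4 tissues with any daily swing left in. The PFC recovery thus does not use the spread within PFC. Replicate numbers mark the 24-h cycle, per the sampling hours in the labels. Deviations from the group means had a mean r of 0.0357 between arrays of the same tissue and cycle, and of 0.0357 between tissues of the same hour. Apart from the tests of the difference between cycles, the main tests held no term for the cycle.

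The 10 genes and the gene lists were chosen with earlier results of these data known. Text names all 10 genes, for each list at most 4 genes with the smallest p in the shared test, the clock genes and Cirbp, and the 5 genes most and least like the set. Markers of the dissected tissues were named for the check of the labels, outside this rule. Hspa1a, Clpp and the array values of Hspa1b at ZT11 were picked out after values were seen. Alternatives covered scaling, filter, row choice, eBayes settings, the replicate block, time as a factor, single cycles, sampling hour as a block and leaving out arrays, tissues or times.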

Additional observations from a re-analysis of the deposited data

How the results depend on the processing

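The shared 24-h count of 7 genes was 3 in the first cycle alone, 0 in the second and 1 with the 4 tissues averaged by sampling hour; leaving out single arrays gave 7 to 8. The averaging by sampling hour and the omission of single times were chosen after seeing the data. In PFC the count of 1 fell to 0 with time as a factor, with 1 fit over 48 arrays, and in the first or the second cycle alone, and ran from 0 to 1 with single arrays left out. With trend and robust eBayes it rose from 0 to 1 in SN/VTA (Hsph1) and from 0 to 2 in STR (Hspa8 and Hsph1), and the fit over 48 arrays also gave 2 in STR. The 12-h count of 0 ran from 0 to 1 with single arrays left out, and the 45 level differences from 43 to 46. With the replicate block the shared count was 7 and it changed no other call of the 10 genes; deviations of same-numbered arrays of a tissue correlated above 0.1 in 28 of 120 pairs. With the sampling hour as a random block the consensus correlation was 0.0133, and the 7 genes passed. That block sets 1 correlation for all genes, and single genes differed from it. The difference between cycles, over 6 times, had a mean r between tissues from -0.07 (Hspe1) to 0.31 (Hspa4l). It was 0.24 for Hspa1b and for Dnajb1, 0.12 for Hsph1 and 0.02 for Hspa8. For genes with a higher value this block corrects little. Over 22 settings no fitted peak of the 10 genes in the shared test moved by more than 6 h. Of 60 level differences 4 turned in direction with median centring, 7 with quantile normalization and 4 with the mean of all probe sets, all 4 of the last for Hspa8 (PFC minus STR -0.68, SN/VTA minus PFC 0.50, SN/VTA minus STR -0.19, STR minus HAB 0.76); the cause was not tested. Low signal limits Hspb1 in PFC.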

Other observations

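Probe sets left out of the report give these values. A probe set annotated with both Snord14e and Hspa8 had a shared 24-h amplitude of 0.31 ± 0.055 with a peak at ZT16.4, earlier than the ZT20.8 of the Hspa8 probe set used, and its tissue means ran from 8.49 in SN/VTA to 9.34 in HAB. The other Hspa8 probe sets peaked at ZT20.1, ZT21.1 and ZT20.8. A probe set annotated with both Hspa1a and Hspa1b had a mean of 4.93, below the filter level, and an amplitude of 0.062 ± 0.049.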
